A study of Mus musculus with 28 samples.

Results

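The 8 genes of the kidney's acid-handling intercalated cells followed here across mouse kidney development were Foxi1, Atp6v1b1, Atp6v1g3, Atp6v0a4, Atp6v0d2, Car2, Car12 and Rhcg. They were taken from the arrays by symbol, with every probe set annotated to exactly 1 of the 8 listed genes. Of the 18193 genes with a probe set of their own, 7 were such genes, read by 10 probe sets, and Atp6v1g3 was not analysed here. Whole kidneys were measured in 7 groups of 2 samples each, each hybridised to an Affymetrix 430A and a 430B array. The groups were Hoxa11, Hoxd11 null kidneys (here null) and wild type kidneys, each at E12.5, at E13.5 and at E16.5 (days of embryonic development), with wild type adult kidneys. A null sample was both kidneys of 1 embryo targeted at both genes, of a strain the labels do not state. Wild type embryonic samples were pooled CD-1 kidneys, and the labels do not settle whether a pool held 1 embryo or several. An adult sample was both kidneys of a mouse whose strain and age are not stated. The labels name no agent. Genotype therefore cannot be told apart from any difference in strain or pooling, and adult RNA (100 ng, prepared with RNAzol) was handled differently from embryonic RNA (30 ng, column kit) before 2 rounds of in vitro transcription.

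Intercalated cells lie among the principal cells of the collecting duct and adjust the acid content of urine. In them carbonic anhydrases turn carbon dioxide and water into acid and bicarbonate, the vacuolar proton pump (V-ATPase) moves the acid across the membrane, and ammonia channels carry it away as ammonium. The forkhead factor Foxi1 is required in mice for these cells to form and is known to act on genes of the pump. The pump has a membrane part (V0) and a cytosolic part (V1), and several of its subunits come in a form that is found in most cells and another that is abundant in intercalated cells.

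Values are MAS5 signals, an array brightness on a linear scale, which can be compared between samples for the same probe set but not between probe sets. Before any log2 fold change, signals below a floor (86.1 on 430A, 148.1 on 430B) were set to it, so where a group lies at the floor the fold is a lower bound. Fold changes are log2, first group minus second, with SE and n = 2 per group, from limma fitted over all samples, and p-values are adjusted over 30564 probe sets. The words rose and fell are kept for an adjusted p under 0.05. Where a gene has several probe sets, the one that reads it is named. In bulk kidney, fewer cells of a type and less RNA per cell cannot be told apart. Hoxa11 read 211 to 500.1 in null kidneys, against 1940 to 3430.6 in wild type embryonic kidneys, as the labels say, while the Hoxd11 probe set did not separate the genotypes (272.5 to 529.6 in null, 326.6 to 417.5 in wild type embryonic kidneys), and its place in the gene is not known here, so it checks nothing. At no stage did null and wild type embryonic samples share a scan day, so within a stage the day cannot be told apart from the genotype. Null E16.5 arrays alone were read on another type of scanner. Wild type E13.5, wild type E16.5 and adult arrays shared 1 scan day on each design. On 430A that day also held the array of null E12.5 replicate 1, and on 430B both wild type E12.5 arrays. On 430A the ratio of 3' to 5' actin signal was 1.264 to 2.273 in null, 2.88 to 4.125 in wild type embryonic and 2.698 and 5.93 in adult samples, and its part in the results below was not tested except where a fit with it is given.

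The promoters of 6 of the 8 genes, the 250 bases before the gene start from RefSeq (GRCm38.p6), were searched for the forkhead core TGTTTA, or TAAACA on the other strand, because Foxi1 is itself a forkhead factor. Atp6v1b1 and Car12 each hold it once on the + strand, starting 98 and 11 bases before the start. Foxi1, Atp6v1g3, Atp6v0a4 and Rhcg hold neither form in this window, and Car2 and Atp6v0d2 had no entry. Of 32851 promoters of the same length, 3952 (12%) hold the core. A match is a description and not a site. Shown are both promoters with a match and, for comparison, that of Rhcg, which changed most between genotypes below, with the match in capitals and the gene strand as read.
Atp6v1b1, chr6:83742767-83743016, + strand: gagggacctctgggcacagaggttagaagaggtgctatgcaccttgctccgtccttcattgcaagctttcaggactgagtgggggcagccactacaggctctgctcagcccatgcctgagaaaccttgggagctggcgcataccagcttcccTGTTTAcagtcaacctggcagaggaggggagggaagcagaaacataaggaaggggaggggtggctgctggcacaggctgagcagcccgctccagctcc
Car12, chr9:66713436-66713685, + strand: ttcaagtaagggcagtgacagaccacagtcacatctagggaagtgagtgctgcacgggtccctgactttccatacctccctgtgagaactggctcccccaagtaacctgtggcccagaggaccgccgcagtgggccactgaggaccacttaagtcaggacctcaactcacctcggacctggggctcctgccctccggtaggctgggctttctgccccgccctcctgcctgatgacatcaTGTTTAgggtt
Rhcg, chr7:79617658-79617907, - strand: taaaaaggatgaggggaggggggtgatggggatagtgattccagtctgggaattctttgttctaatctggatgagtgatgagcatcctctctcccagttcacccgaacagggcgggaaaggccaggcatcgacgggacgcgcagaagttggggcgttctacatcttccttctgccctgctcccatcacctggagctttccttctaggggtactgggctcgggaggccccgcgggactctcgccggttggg

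Of the 7 genes, 4 rose in wild type kidney between E13.5 and E16.5, and 6 rose between E16.5 and the adult. In wild type E16.5 against wild type E13.5 kidneys, Atp6v1b1, Atp6v0d2, Car12 and Rhcg rose, none fell, and Foxi1, Atp6v0a4 and Car2 did not pass the test. Of all 14128 genes tested and read by 1 probe set, 10.2% rose, 9.24% fell and 19.5% were called in either direction. In adult against wild type E16.5 kidneys all but Foxi1 rose and none fell, with 22.3% of all genes rising, 24.7% falling and 47% called. In adult against wild type E12.5 kidneys all 7 rose, with 19.1% of all genes rising, 25% falling and 44.2% called. The median change over the 7 genes was 1.42 from E13.5 to E16.5, against -0.1 over all genes tested, and 1.91 and 2.95 in the adult against E16.5 and E12.5, against 0.05 and -0.1. These comparisons share the wild type E16.5 and adult samples, so they are not independent. Atp6v0a4 was tested at all only because of its adult level, as given below. Foxi1 and Atp6v1b1 reached the level needed to be tested, a mean log2 of 8.84, only in E16.5 and adult groups. Rhcg reached it only in null E16.5 (10.47) and the adult (10.18), with wild type E16.5 at 8.8. The entry of these genes into the test thus rested on groups where they are high, so the counts above are not independent of the filter.

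In wild type E13.5 against wild type E12.5 kidneys, none of the 7 was called by limma, with 2 (Foxi1 and Atp6v0d2) at an unadjusted p under 0.05 and 0.163% of all genes rising, 0.0991% falling and 0.262% called. In null E16.5 against null E13.5 kidneys, 5 of the 7 rose, with 8.1% of all genes rising, 6.43% falling and 14.5% called, and Atp6v0d2 and Atp6v0a4 did not pass. Atp6v0d2, at 1.21 ± 0.44 (adjusted p = 0.0758), did pass with median centring (1.93, adjusted p = 0.0118) and with the floor at the 40th percentile (adjusted p = 0.0466). All 5 of these were higher in both null E16.5 samples than in both null E13.5 samples. In null against wild type kidneys 0 genes were called at E12.5 by limma (0 at an unadjusted p under 0.05), with 10.9% of all genes rising, 7.45% falling and 18.4% called. At E13.5 only Rhcg rose among the 7, with 14.6% of all genes rising, 9.24% falling and 23.8% called. At E16.5 Rhcg and Car12 rose, with 20.8% of all genes rising, 15.1% falling and 35.9% called. These counts of 1 and 2 of 7 are near the shares of all genes and say nothing particular about the 7. The difference between the null effect at E16.5 and its mean over E12.5 and E13.5 was called by limma for 0 of the 7 (1, Car12, at an unadjusted p under 0.05), with 8.99% of all genes called up, 7.93% down and 16.9% in all.

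**Figure D1:**
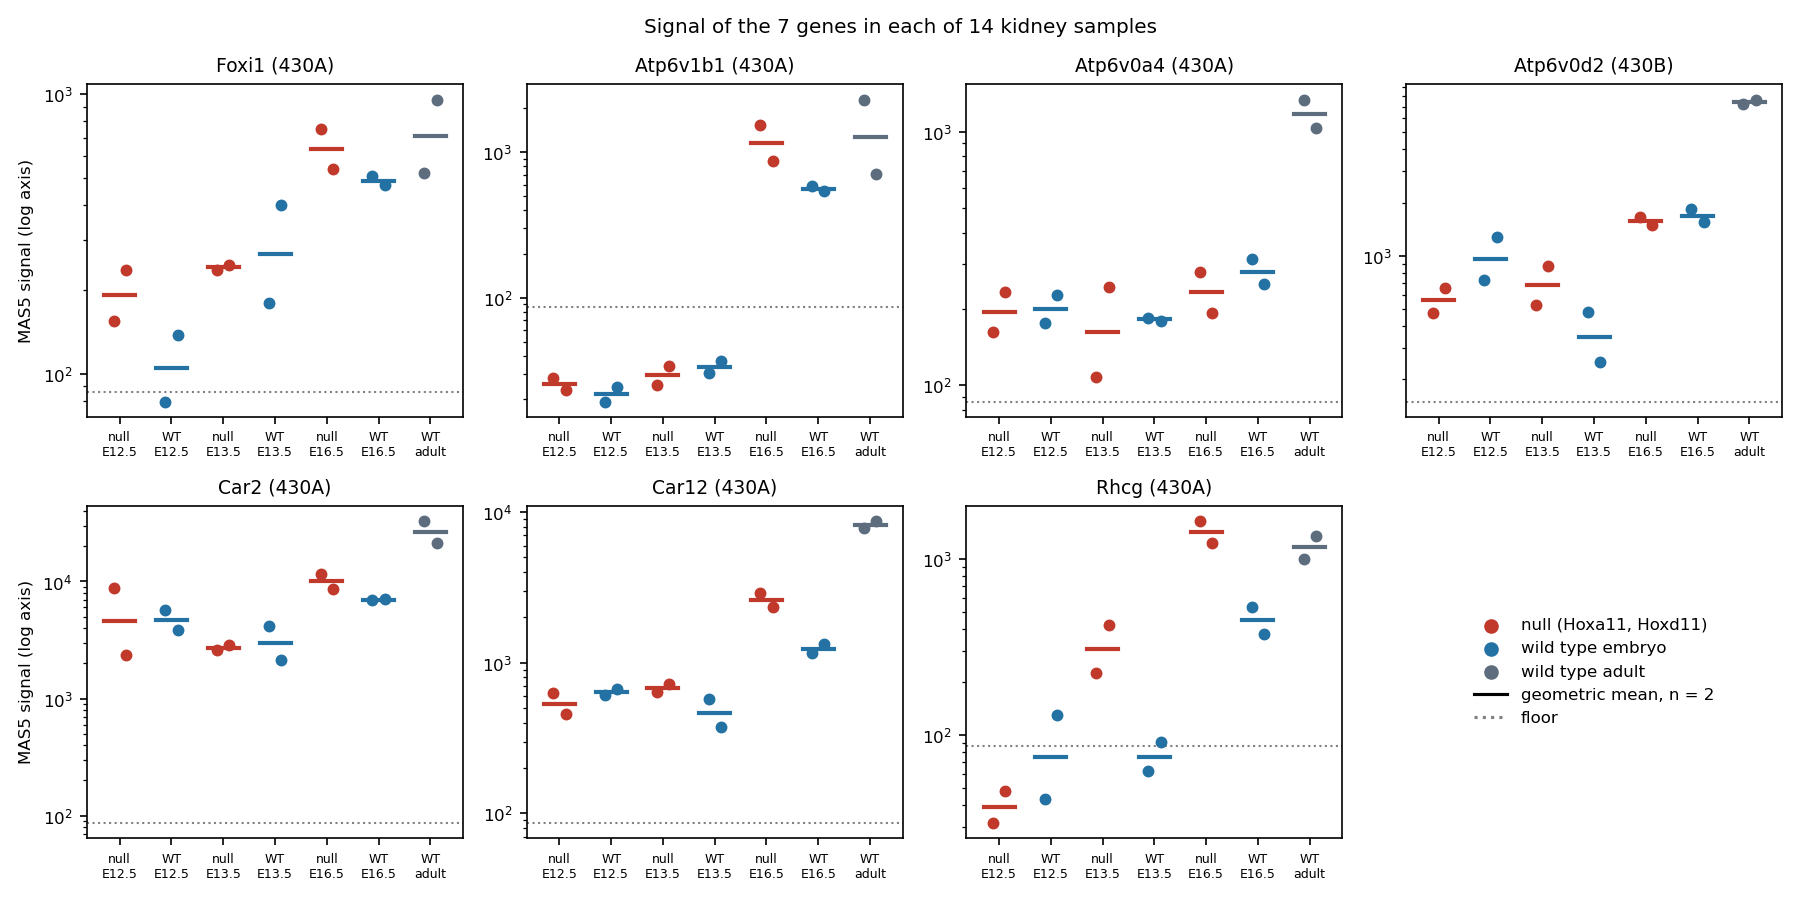
MAS5 signal of the 7 genes in each of the 14 samples on a log axis, by group, null left of wild type at each stage, with geometric means (n = 2, signals not set to the floor) and the floor as a dotted line. Atp6v1b1 lies below the floor in all E12.5 and E13.5 samples and between 542.7 and 2300.0 in the later groups, while Atp6v0a4 stands apart only in the adult.

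Foxi1, the factor that specifies intercalated cells in mice, gave signals of 154.8 and 235.0 in null E12.5 kidneys and 79.3 and 138.0 in wild type E12.5 kidneys, 234.3 and 245.8 in null E13.5 and 179.0 and 400.6 in wild type E13.5. It gave 748.9 and 539.1 in null E16.5, 508.7 and 473.9 in wild type E16.5, and 523.8 and 957.5 in adult kidneys. Both E16.5 groups lay above the earlier groups, and the adult overlapped null E16.5 but not wild type E16.5. The rise was called in null E16.5 against null E13.5 kidneys (1.40 ± 0.43, adjusted p = 0.0445) and in the adult against wild type E12.5 (2.70 ± 0.43, adjusted p = 0.000228), where 1 of the 2 E12.5 samples was at the floor. It was not called in wild type E16.5 against E13.5 (0.87 ± 0.43, adjusted p = 0.165) nor in the adult against E16.5 (0.53 ± 0.43, adjusted p = 0.345). The null call was lost in each of the 4 fits that left out an E13.5 or E16.5 null sample, with the value between 1.17 and 1.64. It was also lost with scan day as a random block (adjusted p = 0.0512), where null E16.5 and null E13.5 share no day, with the actin ratio as a covariate (adjusted p = 0.0806) and with no filter (adjusted p = 0.098). Between genotypes Foxi1 differed by 0.81 ± 0.43 at E12.5, -0.16 ± 0.43 at E13.5 and 0.37 ± 0.43 at E16.5, none called.

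Atp6v1b1 encodes B1, a V1 subunit in the form abundant in intercalated cells and the inner ear. Its signal was 23.4 to 28.2 in null E12.5, 19.3 to 24.4 in wild type E12.5, 25.3 to 34.1 in null E13.5 and 30.4 to 36.8 in wild type E13.5 kidneys, all below the floor. At E16.5 it gave 1534.2 and 872.8 in null and 584.6 and 542.7 in wild type kidneys, and 2300.0 and 713.6 in adult kidneys. It appeared above the floor in every E16.5 and adult sample. The rise to E16.5 was at least 13.4-fold in null kidneys (adjusted p = 0.000184) and at least 6.54-fold in wild type kidneys (adjusted p = 0.00144), with fitted changes of 3.75 ± 0.45 and 2.71 ± 0.45. With the floor raised to a signal of 279.6, the change was 2.05 in null kidneys (adjusted p = 0.00888) and 1.01 in wild type kidneys (adjusted p = 0.101). The adult exceeded wild type E16.5 by 1.19 ± 0.45 (adjusted p = 0.048), but the call was lost without any 1 of 3 samples, the difference being 0.34 without adult replicate 1 (adjusted p = 0.417), 1.24 without wild type E16.5 replicate 1 (adjusted p = 0.13) and 1.13 without replicate 2 (adjusted p = 0.154). It was also lost with an offset in place of the floor (adjusted p = 0.0502), with no filter (adjusted p = 0.106) and with only the samples compared (adjusted p = 0.119), so 9 of 15 alternatives kept it. Each null E16.5 sample lay above each wild type E16.5 sample, by 1.04 ± 0.45, which did not pass (adjusted p = 0.0889). In the fit of only those 4 samples it did (adjusted p = 0.0228).

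Atp6v0a4, the a4 subunit of V0, gave 108.1 to 280.4 in the 6 null kidneys and 176.7 to 314.6 in the 6 wild type embryonic kidneys, and 1339.7 and 1034.1 in adult kidneys. Both adult samples were far above the highest embryonic sample, and the embryonic groups each overlapped their neighbour in order of level. The adult exceeded wild type E16.5 by 2.07 ± 0.40 (4.2-fold, adjusted p = 0.00097), and all 15 alternatives kept that call. Atp6v0a4 reached the level needed to be tested, a mean log2 of 8.84, in the adult alone (10.2, against 7.34 to 8.13 in embryonic groups). Its entry into the test thus rested on the same adult level, and with no filter the adjusted p was 0.00611. No embryonic comparison was called, the closest being wild type E16.5 against E13.5 (0.63 ± 0.40, adjusted p = 0.276).

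Atp6v0d2, the d2 subunit of V0, which bone-resorbing osteoclasts also carry, was read by probe set 1434798_at. It gave 470.7 and 657.5 in null E12.5, 727.7 and 1271.6 in wild type E12.5, 526.8 and 876.8 in null E13.5 and 477.9 and 250.4 in wild type E13.5 kidneys. It gave 1653.0 and 1490.9 in null E16.5, 1828.3 and 1556.6 in wild type E16.5, and 7243.3 and 7675.1 in adult kidneys. Both E16.5 groups overlapped each other and lay above all earlier samples, and the adult stood apart from both. Wild type E16.5 exceeded wild type E13.5 by 2.29 ± 0.44 (4.88-fold, adjusted p = 0.00322), and the adult exceeded wild type E16.5 by 2.14 ± 0.44 (adjusted p = 0.00139). The null difference did not pass at E12.5 (-0.79 ± 0.44, adjusted p = 0.224), E13.5 (0.97 ± 0.44, adjusted p = 0.122) or E16.5 (-0.10 ± 0.44, adjusted p = 0.874).

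A second probe set of Atp6v0d2, 1444176_at, gave 285.5 and 93.8 in null E12.5, 87.2 and 133.8 in wild type E12.5, 502.7 and 634.3 in null E13.5 and 556.9 and 1196.5 in wild type E13.5 kidneys. For wild type E13.5 against wild type E12.5 the probe sets read opposite signs, 2.46 ± 0.53 here (adjusted p = 0.0673) and -1.48 ± 0.44 in the first (adjusted p = 0.183), neither called. From E13.5 to E16.5 both rose in wild type kidneys, here by 1.65 ± 0.53 (adjusted p = 0.0417), with signals of 2347.9 and 2800.8 in wild type E16.5. In null kidneys neither passed for this step, the change here being 1.35 ± 0.53 (adjusted p = 0.098), with 2141.4 and 961.6 in null E16.5. Against E16.5 the adult samples, 4345.6 and 7307.5, were higher by 1.14 ± 0.53, which did not pass (adjusted p = 0.0993).

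**Figure D2:**
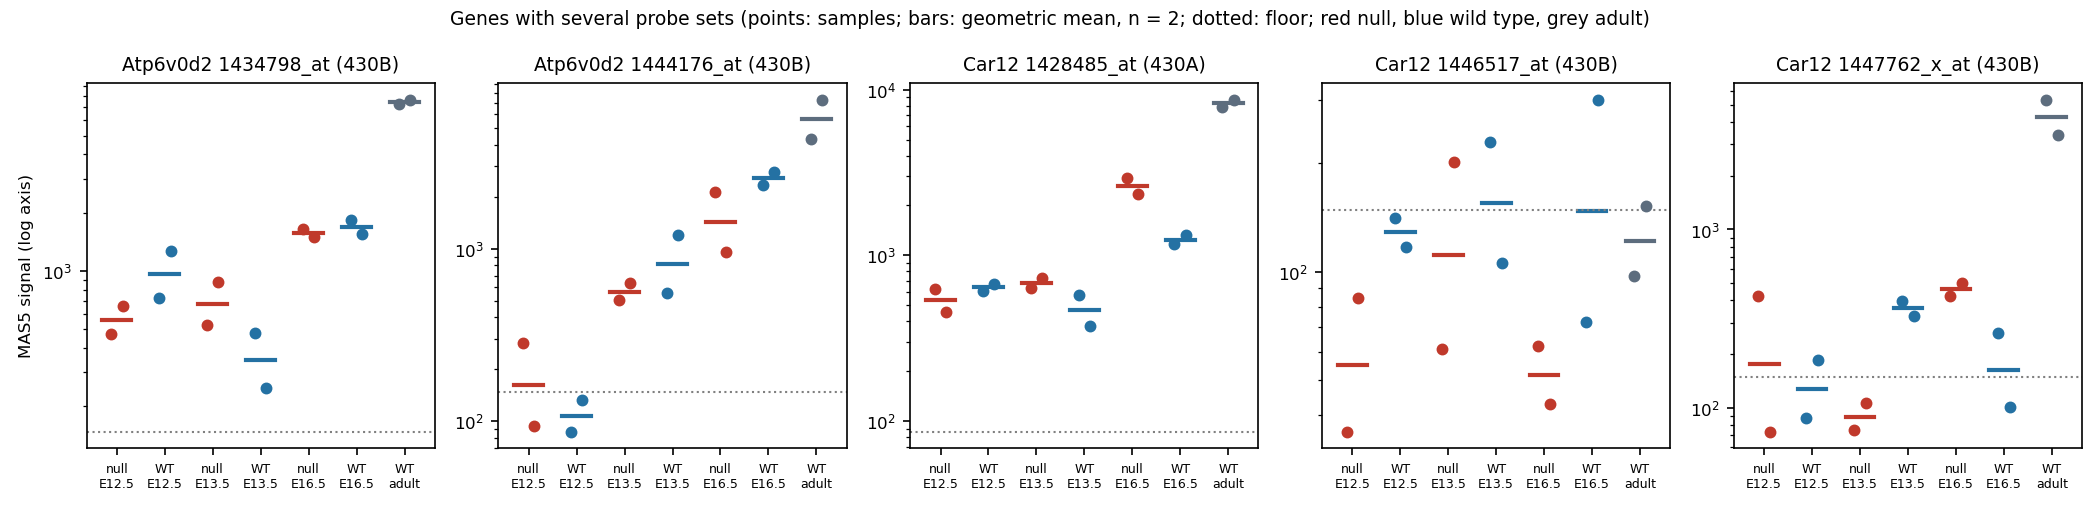
MAS5 signal on a log axis for the 2 probe sets of Atp6v0d2 and the 3 of Car12, in each of the 14 samples with geometric means (n = 2). The 430B probe set 1446517_at of Car12 read 35.9 to 301.1, around the floor of 148.1, and was not tested, while the others are highest in the adult.

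Car2, the cytosolic carbonic anhydrase of intercalated cells, red cells and osteoclasts, gave 8783.7 and 2377.1 in null E12.5, 5760.3 and 3842.0 in wild type E12.5, 2574.9 and 2873.3 in null E13.5 and 4161.0 and 2115.9 in wild type E13.5 kidneys. It gave 11556.6 and 8648.7 in null E16.5, 6910.4 and 7097.3 in wild type E16.5, and 32778.1 and 21264.8 in adult kidneys. Both adult samples stood above all others, null E16.5 exceeded wild type E16.5 in both samples, and the earlier groups overlapped. Null E12.5 replicate 1 (8783.7) also lay above both wild type E16.5 samples and above null E16.5 replicate 2. The adult exceeded wild type E16.5 by 1.91 ± 0.49 (3.77-fold, adjusted p = 0.00631), or by 1.60 without adult replicate 1, where the call was lost (adjusted p = 0.087). Null E16.5 exceeded null E13.5 by 1.88 ± 0.49 (adjusted p = 0.0227), a call lost when either null E13.5 or E16.5 sample was left out (1.67 to 2.09). That call was also lost with no filter (adjusted p = 0.0852) and with the actin ratio as a covariate (adjusted p = 0.0531), so 10 of 16 alternatives kept it. The wild type step from E13.5 to E16.5, 1.24 ± 0.49, did not pass (adjusted p = 0.0869), though it did with the replicate block (adjusted p = 0.0459) and with only the samples compared (adjusted p = 0.0349). Nor did the null difference at E16.5 pass (0.51 ± 0.49, adjusted p = 0.433).

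Car12, a carbonic anhydrase anchored in the membrane with its active site outside the cell, gave 628.9 and 456.6 in null E12.5, 606.9 and 674.2 in wild type E12.5, 637.2 and 727.8 in null E13.5 and 572.8 and 376.6 in wild type E13.5 kidneys. It gave 2925.8 and 2361.0 in null E16.5, 1167.3 and 1324.0 in wild type E16.5, and 7852.3 and 8715.5 in adult kidneys. At E16.5 every null sample exceeded every wild type sample, and the adult stood above both. Null E16.5 exceeded wild type E16.5 by 1.08 ± 0.29 (2.11-fold, adjusted p = 0.0118), a call lost without null replicate 1 (0.93, adjusted p = 0.0789) or wild type replicate 1 (0.99, adjusted p = 0.0784) but kept in the other 14 alternatives, the actin ratio as a covariate among them (1.35, adjusted p = 0.00896). It rose from E13.5 to E16.5 in null (1.95 ± 0.29, adjusted p = 0.00107) and wild type kidneys (1.42 ± 0.29, adjusted p = 0.00503). The adult exceeded wild type E16.5 by 2.73 ± 0.29 (6.65-fold, adjusted p = 8.8e-06). The excess of null over wild type was larger at E16.5 than over the earlier stages by 0.93 ± 0.36, which did not pass (adjusted p = 0.0813).

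The other tested Car12 probe set, 1447762_x_at, gave 425.1 and 501.2 in null E16.5, 261.6 and 101.3 in wild type E16.5, and 5346.0 and 3374.5 in adult kidneys. It also put the adult above wild type E16.5, by 4.43 ± 0.55 (adjusted p = 2.75e-05). This probe set was tested only because its adult mean log2 of 12.05 passed the level of 9.28, so that difference is no separate support. Its highest embryonic mean was 8.85, in null E16.5. For the step from E13.5 to E16.5 in wild type kidneys it read -0.88 ± 0.55 (adjusted p = 0.266), the opposite sign to the first probe set, with one E16.5 sample at the floor. For null against wild type it read 0.60 ± 0.55 at E12.5, -1.29 ± 0.55 at E13.5 and 1.23 ± 0.55 at E16.5 (adjusted p = 0.0961), none called. The first probe set read -0.26, 0.55 and 1.08 there, called at E16.5 alone. At each stage at least 1 of the samples compared was at the floor in the second probe set.

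Rhcg, a channel that lets ammonia leave collecting duct cells toward the urine, gave 31.4 and 47.6 in null E12.5, 43.0 and 129.6 in wild type E12.5, 223.4 and 418.3 in null E13.5 and 62.0 and 90.7 in wild type E13.5 kidneys. It gave 1633.0 and 1232.0 in null E16.5, 532.5 and 372.1 in wild type E16.5, and 997.4 and 1349.7 in adult kidneys. Null E16.5 and the adult overlapped, while null E16.5 lay above every wild type embryonic sample. At E16.5 null exceeded wild type by 1.67 ± 0.37 (3.19-fold, adjusted p = 0.00397). That call was kept in all 16 alternatives, where the change was 1.41 to 1.93. Rhcg entered the test through its null E16.5 and adult levels, and with no filter the adjusted p at E16.5 was 0.013. At E13.5 null exceeded wild type by 1.79 ± 0.37 (3.46-fold, adjusted p = 0.00451), with 1 of the 2 wild type samples at the floor. That call was lost with the floor at a signal of 279.6 (0.29, adjusted p = 0.455) and with the actin ratio as a covariate (2.11, adjusted p = 0.0545). In wild type kidneys it rose by 2.33 ± 0.37 from E13.5 to E16.5 (adjusted p = 0.00105), a call lost with the raised floor (0.67, adjusted p = 0.0893), and in null kidneys by 2.21 ± 0.37 (adjusted p = 0.00224). The adult exceeded wild type E16.5 by 1.38 ± 0.37 (adjusted p = 0.00855), a call lost without wild type E16.5 replicate 2 (1.12) or adult replicate 2 (1.16).

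**Figure D3:**
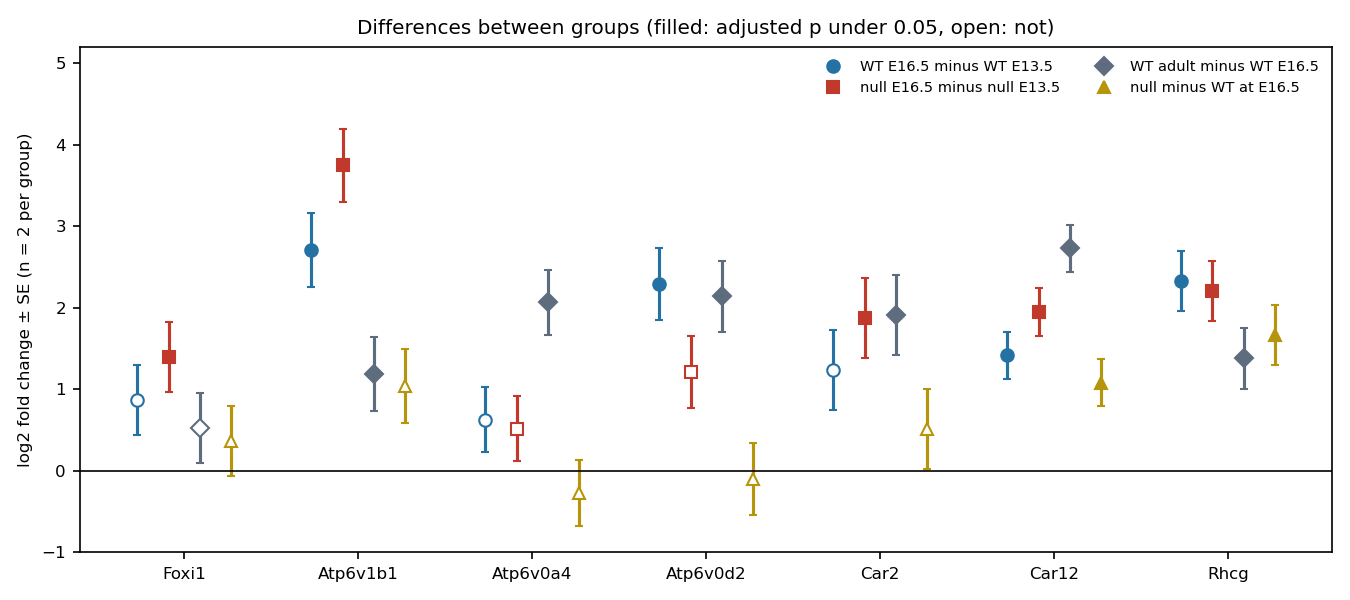
Log2 fold change ± SE (n = 2 per group) of the 7 genes in 4 comparisons, filled where the adjusted p was under 0.05 and open where it was not. Rhcg and Car12 are filled in all 4 comparisons, and Atp6v0a4 only in the adult.

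Across the 14 samples the log2 profiles of the 7 genes were correlated, described here without a test because the samples fall into 7 groups. Car12 followed the mean of the others most closely (r = 0.97) and Foxi1 least (r = 0.75), with Atp6v1b1 at 0.92, Atp6v0d2 at 0.91, Rhcg at 0.86, Car2 at 0.84 and Atp6v0a4 at 0.81. Outside the 7, the probe sets most like their mean profile (n = 14 samples) were those of Aldh1l1, a folate enzyme (r = 0.991), Steap2, a metal reductase (r = 0.99), Cubn, a receptor for protein uptake in the proximal tubule (r = 0.99), and Slc7a9, part of the cystine transporter (r = 0.989). Next came Rhbg, the basolateral ammonia channel and partner of Rhcg in the collecting duct (r = 0.989), Kl, Pdzd3 and Slc22a12 (r = 0.988 each). Of 30564 probe sets 550 (1.8%) had r over 0.9.

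Other V-ATPase subunits were compared to ask whether the 3 pump genes above moved with the rest of the pump. Of 19 tested, 2 rose and 1 fell in wild type E16.5 against E13.5, 8 rose and 0 fell in the adult against wild type E16.5, 7 rose and 0 fell in null E16.5 against null E13.5, and 7 rose and 1 fell in null against wild type at E16.5. In the same order, 10.2%, 22.3%, 8.1% and 20.8% of all genes rose and 9.24%, 24.7%, 6.43% and 15.1% fell. In either direction 19.5%, 47%, 14.5% and 35.9% of all genes were called. The median change over the list was 0.24, 0.73, 0.66 and 0.45, against -0.1, 0.05, -0.06 and 0.02 over all genes tested. The ubiquitous partner of Atp6v1b1, Atp6v1b2, differed by 0.80 ± 0.47 in the wild type step and 0.36 ± 0.47 in the adult, neither called. Atp6v0d1, the ubiquitous partner of Atp6v0d2, differed by -0.26 ± 0.28 and 0.55 ± 0.28, neither called.

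In the adult Atp6v0e2 (2.99 ± 0.33, adjusted p = 1.08e-05) and Atp6v1c2, a C subunit of kidney and lung (2.75 ± 0.38, adjusted p = 7.37e-05), rose most, followed by Atp6v0e (1.50 ± 0.29) and Atp6v0b (1.46 ± 0.31). In the wild type step, Atp6v1a, the catalytic A subunit (2.12 ± 0.50, adjusted p = 0.0107), and Atp6ap2, an accessory subunit (1.55 ± 0.25, adjusted p = 0.00117), rose. Tcirg1, the a3 subunit of osteoclasts and macrophages, fell there (-1.16 ± 0.29, adjusted p = 0.0128). In null against wild type kidneys at E16.5, Tcirg1 (1.61 ± 0.29, adjusted p = 0.00106), Atp6v0a1 (1.52 ± 0.32) and Atp6v0e2 (1.51 ± 0.33) rose and Atp6v1g1 fell (-1.58 ± 0.23, adjusted p = 0.000316).

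**Figure D4:**
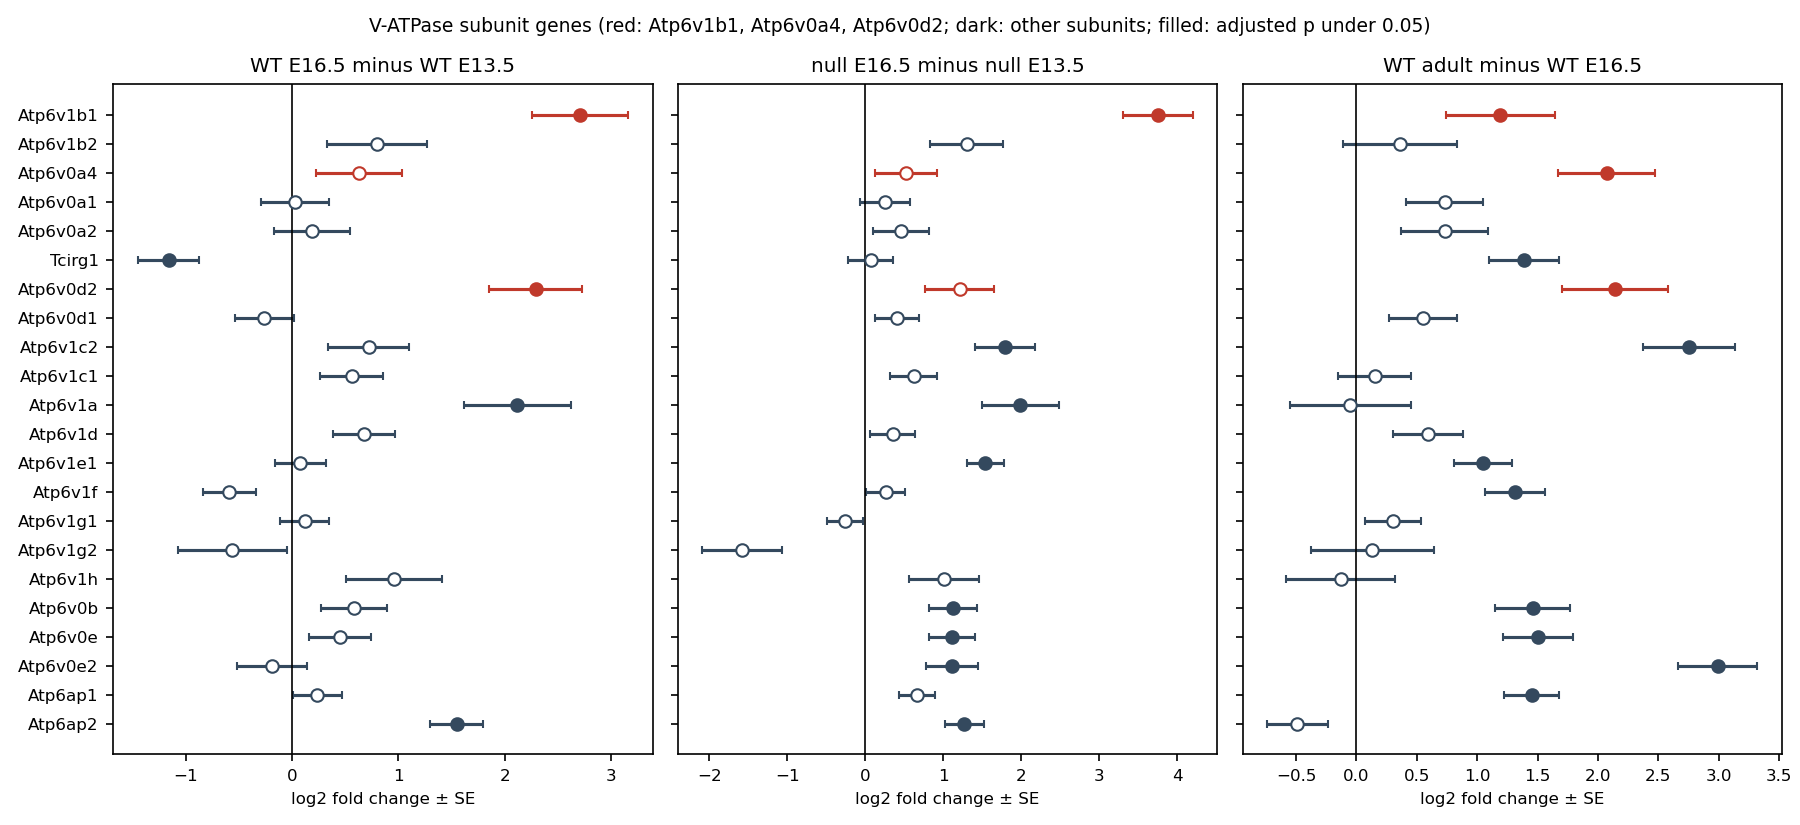
Log2 fold change ± SE (n = 2 per group) of V-ATPase subunit genes in 3 comparisons, red for Atp6v1b1, Atp6v0a4 and Atp6v0d2, and another colour for the other subunits, filled where the adjusted p was under 0.05. In the adult Atp6v0e2 and Atp6v1c2 reach 2.99 and 2.75, above Atp6v0d2 at 2.14.

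Other genes known from intercalated cells were counted in the same way. Of 12 tested of 14, 7 rose and 0 fell in the adult against wild type E16.5, 2 rose and 1 fell in the wild type step, 3 rose and 1 fell in the null step, and 3 rose and 1 fell in null against wild type at E16.5. Among all genes 22.3%, 10.2%, 8.1% and 20.8% rose in these comparisons, and 24.7%, 9.24%, 6.43% and 15.1% fell. The median change over the list was 1.56, 0.24, 0.39 and 0.09 in these comparisons, against 0.05, -0.1, -0.06 and 0.02 over all genes tested. Slc26a4 gave 4234.1 and 5528.5 in adult kidneys and 333 and 495.8 in wild type E16.5 kidneys. In the adult Slc26a4, the chloride and bicarbonate exchanger pendrin of type B cells, rose most (3.57 ± 0.47, adjusted p = 5.41e-05), followed by Rhbg (2.73 ± 0.28, adjusted p = 5.84e-06), Slc4a9, another type B exchanger (2.50 ± 0.66), and Oxgr1, a receptor for a metabolic acid (2.49 ± 0.51). Rhbg rose by at least 2.64 ± 0.28 in the wild type step, because both E13.5 samples lay below the floor, together with Tfcp2l1, a factor of collecting duct cells (2.06 ± 0.39), while Slc26a11 fell (-2.28 ± 0.49). Slc4a9 gave 3758 and 3643.1 in null E16.5 kidneys, against 665.8 and 929.9 in wild type E16.5, and the groups did not overlap. In null against wild type at E16.5, Slc26a11 (2.92 ± 0.49), Slc4a9 (2.23 ± 0.66) and Tfcp2l1 (1.32 ± 0.39) rose and Slc4a1, the exchanger of type A cells that red cells also carry, fell (-1.60 ± 0.42).

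**Figure D5:**
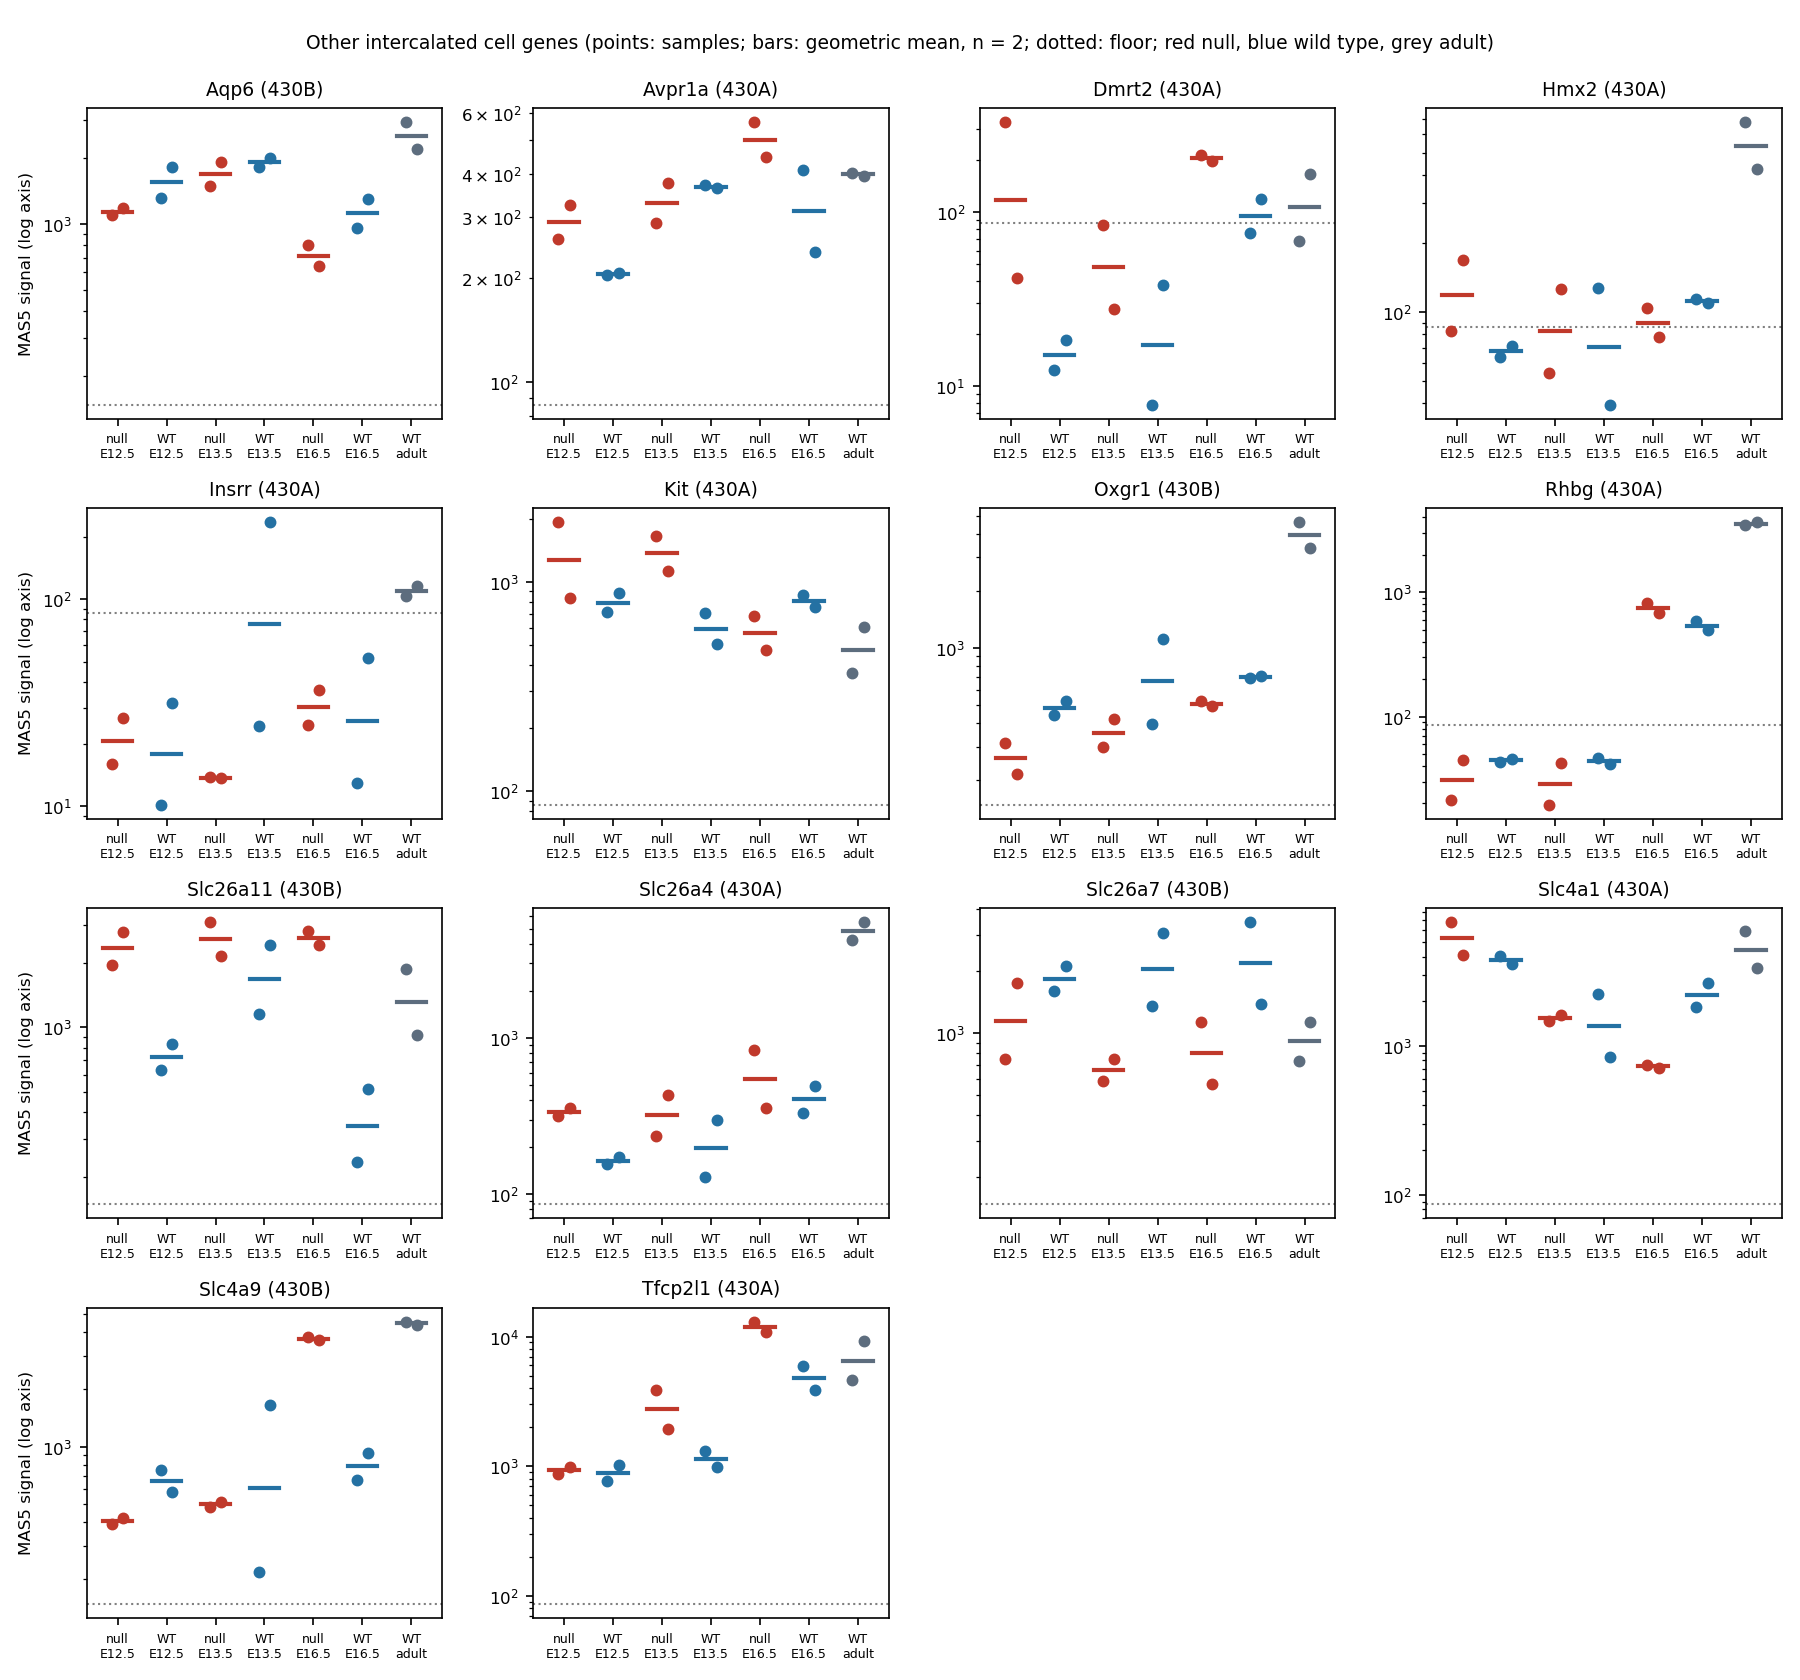
MAS5 signal on a log axis of all 14 other intercalated cell genes in each of the 14 samples, null left of wild type at each stage, with geometric means (n = 2) and the floor as a dotted line. Rhbg lies below the floor before E16.5 in all samples and at 3472.5 and 3657.1 in the adult.

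Other carbonic anhydrases, of which 10 of 14 were tested, changed in both directions, with a median change of 1.64 in the adult against E16.5, -0.2 in the wild type step and -0.01 in null against wild type at E16.5. Over all genes 22.3%, 10.2% and 20.8% rose in these comparisons, and 24.7%, 9.24% and 15.1% fell. In the adult 8 rose and 1 fell, led by Car15 (4.88 ± 0.48, adjusted p = 4.69e-06), Car14 (3.18 ± 0.28) and Car3 (3.13 ± 0.36), with Car8 falling (-2.80 ± 0.48). In the wild type step 4 rose and 3 fell, and in null against wild type at E16.5 2 rose (Car11 by 1.49 ± 0.38 and Car14 by 0.92 ± 0.28) and 2 fell (Car10 by -1.70 ± 0.33 and Car3 by -1.01 ± 0.36).

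Markers of neighbouring and other cells moved with the same comparisons, and their part in the results was not tested. Among all genes 10.2% rose and 9.24% fell in the wild type step, and 8.1% and 6.43% in the null step. In the adult against E16.5 22.3% rose and 24.7% fell, and in null against wild type at E16.5 20.8% and 15.1%. Of 11 principal cell genes, 8 rose in the wild type step, 8 in the null step and 7 in the adult against E16.5, where 1 fell, and their summed signal was 11397 to 14082 in null E16.5 kidneys, 14357 to 15086 in wild type E16.5 and 48326 to 49555 in adult kidneys. Only Aqp3, a water channel of those cells, fell in null against wild type at E16.5 (-1.90 ± 0.32, adjusted p = 0.000712). Of 9 proximal tubule genes, 7 rose in the wild type step, 8 in the null step, 9 in the adult and 5 in null against wild type at E16.5, the last with a median change of 1.35 over the list and a summed signal of 28805 to 46315 in null E16.5 against 14496 to 15280 in wild type E16.5. At that stage 0 of 11 principal cell genes rose.

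In null against wild type, 10.9% of all genes rose and 7.45% fell at E12.5, and 14.6% rose and 9.24% fell at E13.5. Of 10 ureteric epithelium genes, 1 rose and 5 fell in null against wild type at E12.5 and 1 rose and 1 fell at E16.5, 2 rose in the wild type step, and 4 fell in the adult. Macrophage and osteoclast genes, of interest because Atp6v0d2, Car2 and Tcirg1 are also carried by those cells, rose in 10 of 11 in the adult against E16.5 and in 5 of 11 in null against wild type at E16.5, with a summed signal of 11920 to 14068 in null and 6711 to 7680 in wild type E16.5 kidneys. In the wild type step 0 of them rose and 2 fell. Of 6 erythroid genes tested, of interest because red cells carry Car2 and Slc4a1, 0 rose and 3 fell in each comparison that follows. These were Hba-x, Hbb-y and Alas2 in the adult against E16.5. In the wild type step they were Hba-x (-4.7 ± 0.4), Hbb-y (-1.85 ± 0.32) and Hbb-bh1 (-4.61 ± 0.62). Alas2 (1.11), Ermap (-0.78) and Add2 (0.04) were not called in that step. In null against wild type at E16.5 Hba-x, Hbb-y and Add2 fell. Hbb-bh1, not called there, and Hba-a1 and Rhag, not tested, were at the floor in both null E16.5 samples. Of 7 endothelial genes, 5 rose in null against wild type at E12.5 (median change 2.38), 4 at E13.5 (1.93) and 4 at E16.5 (0.91). In the adult against E16.5 0 of them rose by limma. Of 6 urothelial genes 1 fell in null against wild type at E16.5 and 2 rose in the wild type step.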

How the data were processed

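Each of 14 kidney samples was hybridised to a pair of arrays, 28 in all. The deposited values are MAS5 signal intensities per probe set on a linear scale, made by the authors with MAS5 per the submitters' processing notes, whose version and settings are not given in the sources used here; the trimmed mean of each array was 1500.4 to 1500.7 on 430A and 1500.3 to 1500.4 on 430B. Run records gave scan days and are deposited beside the intensities. For the 2 arrays of adult replicate 2 the record names the other design, and that sample's description speaks of replicate 1. Values were used as labelled; the adult replicates held different values (r = 0.956 on 430A and 0.895 on 430B), but whether they are 2 animals rests on the titles and the design text.

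Left out were 64 control probe sets on each design and 100 probe sets on 430B that 430A also holds. Signals below the 20th percentile of each design were set to that floor before log2. Probe sets with a mean log2 above the 50th percentile in at least 1 group were tested (14576 on 430A, 15988 on 430B), so 9 of the 10 probe sets of the 7 genes passed. Each design was fitted with limma 3.58.1 in R 4.3.3, a mean per group over 14 arrays (7 residual degrees of freedom), eBayes with trend, two-sided tests, Benjamini-Hochberg adjustment over both designs. The self-test on simulated data was used to check the code. Replicates are separate embryos or animals per the series' design text, while the labels of wild type embryos speak of pooled kidneys. Replicates correlated at 0.956 to 0.988 on 430A and 0.842 to 0.948 on 430B. Same-numbered samples were not paired: over 21 pairs of groups their deviations correlated at -0.35 to 0.28 on 430A and -0.18 to 0.11 on 430B.

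A gene with several probe sets is read by a tested 430A probe set before a 430B one, then by the highest mean. All 8 genes are named, with up to 4 called genes of the largest change per list. Lists are other V-ATPase subunits, other intercalated cell genes, other carbonic anhydrases, principal cells, ureteric epithelium, proximal tubule, urothelium, erythroid, macrophage and osteoclast, and endothelium. The members and lists were chosen with earlier results of these data known. Alternatives were quantile normalization, median centring, an offset of 64, raising the floor to the 40th percentile, dropping the filter or raising it to the 70th percentile, eBayes without the trend, adjusting p by design, counting any probe set of a gene, a replicate block, a random block for scan day, the log2 actin ratio as a covariate, fitting only the samples compared, and omitting every replicate in turn. Figures were drawn with matplotlib 3.10.9.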

Additional observations from a re-analysis of the deposited data

How the results depend on the processing

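None of the fold changes of the 7 genes reversed sign while called. Of 390 alternative values for the 25 called fold changes, 362 kept the call and 28 lost it, and of 629 for the 38 not called, 10 passed. For null against wild type at E13.5 the count of 1 became 0 with the floor at the 40th percentile, 0 with the actin ratio as a covariate and 0 with only the samples compared, where Rhcg was not tested. For the same comparison at E16.5, fitting only the samples compared kept Rhcg and Car12 and added Atp6v1b1 (adjusted p = 0.0228). At E16.5 the count of 2 was 1 to 2 leaving out a replicate. For the difference of the null effect between stages, the count of 0 became 1 with quantile normalization, 2 with median centring and 1 with the floor at the 40th percentile, and was 0 to 1 leaving out a replicate. For null E16.5 against null E13.5 the count of 5 became 3 with no filter, 3 with the filter at the 70th percentile and 3 with the actin ratio as a covariate, 4 with scan day as a random block, and 6 with median centring and with the floor at the 40th percentile, and was 3 in each fit leaving out a replicate. For wild type E16.5 against E13.5 the count of 4 became 2 with the floor at the 40th percentile. With the filter at the 70th percentile Atp6v1b1 was not tested and so not counted there. For the adult against E16.5 the count of 6 became 5 with the offset, with no filter and with only the samples compared, 4 with the filter at the 70th percentile, and was 4 to 5 leaving out a replicate. For the adult against E12.5 the count of 7 became 4 with the filter at the 70th percentile, which tests fewer genes. With the replicate block the counts were 0, 1, 2, 0, 5, 0, 5, 6 and 7 in the order of null against wild type at E12.5, at E13.5 and at E16.5, the stage difference, the null step, E13.5 against E12.5, E16.5 against E13.5, and the adult against E16.5 and E12.5; the block added a call of Car2 (adjusted p = 0.0459) in the wild type step and changed no other. Falls with the filter at the 70th percentile came from genes that it left untested. The cause of the other changes was not tested. The median of all genes moved with the scaling, for null against wild type at E16.5 to 0.12 with quantile normalization and 0.28 with median centring, against 0.02. Over the alternatives all probe sets called at null E12.5 ranged from 779 to 7272, against 5685. The 2 samples per group limit precision, and a gene not called may have changed.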
